A study of Mus musculus with 4 samples.

Results

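AMPA and NMDA receptors are the glutamate-gated ion channels of excitatory synapses, and the transcripts of 10 of their subunits were followed across 4 sections of mouse brain. The 10 genes were the AMPA receptor subunits Gria1, Gria2, Gria3 and Gria4, the obligatory NMDA receptor subunit Grin1, the glutamate-binding NMDA receptor subunits Grin2a, Grin2b, Grin2c and Grin2d, and the modulatory subunit Grin3a. They were picked by gene symbol from the 32285 genes of the deposited tables, and all 10 were present and passed the filter on low counts in each comparison.

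AMPA receptors carry the fast part of excitatory transmission, and channels that hold the Gria2 product, whose pore residue is changed by RNA editing, let little calcium through. NMDA receptors open when glutamate is bound and the membrane is depolarised, admit calcium and trigger synaptic plasticity. The Grin1 product is needed in every NMDA receptor, whereas the Grin2 product beside it sets how long the channel stays open. In the forebrain Grin2b dominates early in life and Grin2a increases with maturation, while Grin2c is known from cerebellar granule cells and astrocytes and Grin2d from interneurons and deep brain nuclei. The Grin3a product lowers the calcium permeability of the receptors it joins. Oligodendrocyte precursor cells (OPCs), the dividing cells that give rise to myelin-forming oligodendrocytes, receive synapses from neurons and carry glutamate receptors too.

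The study asked how Nf1, the gene mutated in neurofibromatosis type 1, acts in OPCs, and used spatial transcriptomics on fresh frozen 10-µm brain sections. All 4 sections carried 1 mutant and 1 normal copy of Nf1 (Nf1+/-), on a C57/BL6 background per the methods, and no wild-type section was analysed here, so no value below compares genotypes. The labels give neither age, sex nor treatment, do not name the Nf1 allele, and leave unsaid whether each section is from its own mouse. The sections are called 1 to 4 as names only. The main fits were blocked by section. Their p-values set a difference between spot groups against the spread of such differences from section to section. That spread was estimated from all spot groups of a fit together and partly shared across genes, and it may be partly technical.

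Each section was read out in barcoded spots that can hold several cells of different types, so spots were grouped by a marker gene and not called cells. The Slc17a7-rich spots were the top 10% of a section by excess UMIs (unique molecular identifiers, counted transcripts) of Slc17a7, a glutamate transporter of cortical excitatory neurons. Groups for Ppp1r1b, a phosphatase inhibitor of striatal projection neurons, for Slc17a6, a glutamate transporter of many subcortical excitatory neurons, and for Mbp, a myelin protein, were formed the same way, and a spot that fell into more than 1 group was left out. The groups held 115 to 227 spots per section, from 1537, 2358, 2294 and 1431 spots used. Median depth was 11108 to 19967 UMIs per spot in the Slc17a7-, Ppp1r1b- and Slc17a6-rich groups, against 3596 to 7490 in the Mbp-rich group.

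The marker lists set the Ppp1r1b-rich and Mbp-rich spots apart, and were mixed for the Slc17a7-rich and Slc17a6-rich spots. Summed levels of 8 striatal genes were 5438 to 6715 CPM (counts per 1000000 UMIs of the sum) in the Ppp1r1b-rich spots and 319 to 688 in the Slc17a7-rich spots. Summed levels of 8 oligodendrocyte genes were 8611 to 16314 CPM in the Mbp-rich spots and at most 1939 in the other 3 groups. At least 3 of 10 choroid plexus markers were found in 15 of 142, 0 of 215, 0 of 202 and 23 of 138 Mbp-rich spots. These markers summed to 148, 9.25, 26.7 and 356 CPM there. In the other groups such spots numbered 12 to 14 in section 1 and 0 to 4 in section 4. The 8 cortical markers summed to 560 to 790 CPM in the Slc17a7-rich, 332 to 419 in the Ppp1r1b-rich and 192 to 345 in the Mbp-rich spots. The Slc17a6-rich spots were above the Slc17a7-rich ones in sections 3 and 4 (values below). At least 3 of 8 hippocampal markers were found in 27 of 140, 40 of 184, 35 of 191 and 18 of 120 Slc17a7-rich spots. In the Ppp1r1b-rich spots they were found in 6 of 152, 16 of 227, 7 of 215 and 7 of 143. Yet these 8 markers summed to 169 to 191 CPM in the Slc17a7-rich spots, 180 to 203 in the Ppp1r1b-rich spots and 148 to 181 over all spots. Their summed level thus did not set the Slc17a7-rich spots apart. In the Slc17a6-rich spots 8 subcortical markers summed to 339, 136, 170 and 159 CPM, above the 119, 123, 91.6 and 95.5 of the Slc17a7-rich spots in 4 of 4 sections. Over all spots of each section these markers summed to 183, 142, 154 and 127 CPM, which in section 2 was above the Slc17a6-rich value. In section 4 the Mbp-rich value, 236 CPM, was also above that of the Slc17a6-rich spots. These spots kept cortical genes as well: their 8 cortical markers summed to 323, 693, 641 and 681 CPM in sections 1 to 4, against 560, 790, 626 and 679 in the Slc17a7-rich spots, and Tcf7l2, a thalamic marker, stood at 4.71 to 17.9 CPM. Slc17a6 itself was low, at 72.6 to 128 CPM in its own group, and Zic1 and Calb2 were high in section 1 alone (87.0 and 166 CPM, against at most 31.8 and 45.5 in the other sections). The Slc17a6-rich spots are therefore called by their rule, and their fold changes are also given for the 61 to 91 of these spots per section whose cortical marker score was below 0. Their make-up was not computed under that choice.

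On the mouse genome build GRCm38.p6 (mm10) the 10 genes lie apart, on 9 chromosomes. Gria1 spans chr11:57011571-57330244, Gria2 chr3:80681450-80804227, Gria3 chrX:41400819-41678601 and Gria4 chr9:4417893-4796234. Grin1 is a compact gene of 28.0 kb at chr2:25291177-25319187, Grin2b a long one of 460.4 kb at chr6:135713221-136173615, and Grin2a lies at chr16:9567901-9996083. Grin2c at chr11:115249169-115267297 shares its chromosome with Gria1, Grin2d lies at chr7:45831883-45871194 and Grin3a at chr4:49661611-49846023. The promoters of 3 members whose spot-group levels contrast below are shown, Grin1 and Gria2, which were lower in the Mbp-rich spots, and Grin2c, which did not pass the test there. Each run is the 250 bases before the start used by the RefSeq-based promoter table (GRCm38.p6), read 5′ to 3′ on the minus strand. That start can lie inside the gene span given above, as for Gria2 and Grin2c, whose runs fall within or overlap their spans. The table held 5 of the 10 members, and capitals mark the E box CACGTG or the GC box GGGCGG on either strand.
Grin1, chr2:25319188-25319437: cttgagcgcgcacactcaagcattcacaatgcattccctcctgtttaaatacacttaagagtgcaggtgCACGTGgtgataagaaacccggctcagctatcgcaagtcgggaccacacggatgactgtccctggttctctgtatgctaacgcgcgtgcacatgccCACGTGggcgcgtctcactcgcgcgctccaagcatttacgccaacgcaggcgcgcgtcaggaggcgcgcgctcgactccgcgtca
Gria2, chr3:80802836-80803085: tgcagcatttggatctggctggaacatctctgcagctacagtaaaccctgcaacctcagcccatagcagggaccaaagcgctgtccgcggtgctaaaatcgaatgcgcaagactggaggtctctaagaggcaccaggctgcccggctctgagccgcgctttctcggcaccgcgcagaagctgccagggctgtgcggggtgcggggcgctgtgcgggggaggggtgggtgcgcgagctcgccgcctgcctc
Grin2c, chr11:115267244-115267493: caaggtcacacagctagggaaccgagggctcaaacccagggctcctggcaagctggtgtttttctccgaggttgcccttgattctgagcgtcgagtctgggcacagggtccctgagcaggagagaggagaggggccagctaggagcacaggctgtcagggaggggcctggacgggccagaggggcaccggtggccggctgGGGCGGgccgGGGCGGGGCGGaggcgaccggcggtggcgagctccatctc
The Grin1 run held the E box at 2 places and no GC box, the Grin2c run held the GC box at 3 places (matches may overlap), and the Gria2 run held neither. The Gria4 and Grin2d runs, not printed, also held neither, with a G and C content of 58.8% and 54.4%. Like Grin2c, these members did not pass the test in the Mbp-rich spots. Among all 32851 promoter runs of this length, 6.02% held the E box and 32.7% the GC box on either strand. The third motif searched, TGACGT, was in 6.47% of all runs and in none of the 5 available members. The G and C content was 58.8% for Grin1, 64.8% for Gria2 and 68.8% for Grin2c, with a median of 52.4% over all runs. A match describes letters only and is not a measured binding site.

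Over all spots, the members ran, from highest to lowest mean level, Gria2, Grin1, Gria1, Gria3, Grin2a, Grin2b, Gria4, Grin2c, Grin3a and Grin2d. The libraries count transcript ends, so levels are given as CPM of the section and were not divided by length, and capture can differ between genes. Gria2 stood at 282, 311, 284 and 274 CPM in sections 1 to 4 (mean 288 ± 16.03, SD, n = 4). Grin1 followed at 262, 310, 246 and 269 CPM (272 ± 27.4), below Gria2 in 4 of 4 sections, although in section 2 their exact Poisson 95% intervals overlapped (305 to 317 and 304 to 316 CPM). Intervals of this kind cover counting error only.

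Gria1, a subunit inserted during synaptic plasticity, had 135, 130, 120 and 105 CPM (122 ± 13.1), and Gria3 had 94.6, 135, 121 and 115 (117 ± 16.8). These neighbours changed places between sections, Gria1 being the higher in 1 of 4. Gria4, known from fast-spiking interneurons, was lower at 26.3, 27.8, 26.4 and 35.7 CPM (29.1 ± 4.48), and section 4 alone was above the other sections' values.

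Grin2a was the leading Grin2 gene in all 4 sections, with 64.2, 101, 81.6 and 104 CPM (87.8 ± 18.6). It varied most among the members relative to its mean (coefficient of variation 21.2%), and section 1 was the lowest. Grin2b was steadier, at 51.9, 60.9, 52.7 and 57.8 CPM (55.8 ± 4.28). Grin2c had 23.3, 31.7, 27.3 and 23.9 CPM (26.6 ± 3.85) and could not be ordered against Gria4, which was above it in 2 of 4 sections.

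The least abundant members were Grin3a, at 18.4, 14.4, 13.7 and 17.8 CPM (16.1 ± 2.37), and Grin2d, at 11.6, 7.95, 7.81 and 9.92 CPM (9.32 ± 1.79). Both were highest in section 1. Grin2d rested on 172 to 294 UMIs per section, against 5280 to 11504 for Gria2, so its values carry the widest counting error.

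**Figure D1:**
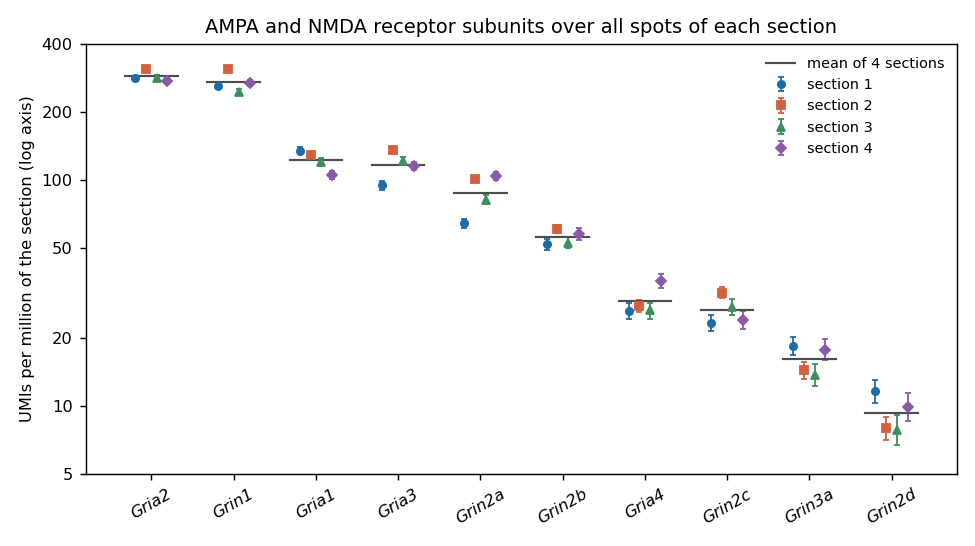
Level of each subunit over all spots of each section, in CPM of the section on a log axis, with exact Poisson 95% intervals as bars, sections as colours and the mean of 4 sections as a line. Gria2 and Grin1 lie between 246 and 311 CPM, and Grin2d lies between 7.81 and 11.6.

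The share of spots with at least 1 UMI followed the same order and depended on depth. Gria2 was found in 88.1% ± 5.14 of spots (SD, n = 4 sections) and Grin1 in 85.9% ± 6.62, while Grin3a was found in 17.3% ± 4.56 and Grin2d in 11.1% ± 3.38. Spots with at least 5000 UMIs, thinned to 5000 each, gave 73.5% for Gria2, 70.4% for Grin1, 7.35% for Grin3a and 4.65% for Grin2d. The most UMIs of 1 member in 1 spot were 25 for Grin1 and 4 for Grin2d.

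Gria1 set the Ppp1r1b-rich spots apart from the Slc17a7-rich spots. Its level was 140, 161, 129 and 135 CPM in the Ppp1r1b-rich spots of sections 1 to 4 and 112, 99.1, 91.2 and 97.4 in the Slc17a7-rich spots. The values did not overlap, every Ppp1r1b-rich sum lying above every Slc17a7-rich one. Overlap here and below is that of the CPM values, scaled by total UMIs, whereas the main fits were scaled by TMM. The fitted log2 fold change was 0.68 (SE 0.09, adjusted p = 9.19e-07, edgeR quasi-likelihood test blocked by section, with Benjamini-Hochberg adjusted values across 12172 genes, as for all adjusted p-values of spot groups below).

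Grin3a and Grin2d were the members most reduced in the Ppp1r1b-rich spots. Grin3a was at 6.53, 8.18, 5.89 and 6.51 CPM there and at 16.7, 15.97, 14.8 and 23.8 in the Slc17a7-rich spots (log2 fold change -1.16, SE 0.21, adjusted p = 0.000104). Grin2d was at 4.81, 3.97, 2.58 and 3.26 against 8.51, 7.98, 6.52 and 9.32 (-0.94, SE 0.27, adjusted p = 0.00705), with as few as 7 UMIs in a Ppp1r1b-rich and 18 in a Slc17a7-rich sum. For both genes the groups did not overlap, but the Grin2d call was lost with the top 5% of spots and with spots ranked by marker CPM (log2 fold change -1.17 to -0.55 over 17 alternatives).

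Grin2a and Gria3 were lower in the Ppp1r1b-rich spots too. Grin2a was at 66.7, 84.8, 65.2 and 86.1 CPM against 95.0, 140, 101 and 137 (log2 fold change -0.46, SE 0.11, adjusted p = 0.00251). Gria3 was at 87.7, 118, 111 and 106 against 126, 182, 155 and 141 (-0.34, SE 0.10, adjusted p = 0.0112). In CPM the groups did not overlap for either gene, which was not examined on the TMM scale. The Gria3 call was lost in 5 of 17 alternatives, among them without section 2 and without section 3 (log2 fold change -0.51 to -0.29 over all 17).

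The other members did not pass the test in this comparison, with log2 fold changes of 0.15 for Gria2, -0.35 for Gria4, 0.07 for Grin1, 0.08 for Grin2b and 0.27 for Grin2c. In all, 1 member was higher and 4 were lower in the Ppp1r1b-rich spots, while 19.4% of all tested genes were higher and 18.9% lower. The direction is relative to the scaling: with scaling by total UMIs in place of TMM, the median tested gene moved by -0.17 on the log2 scale, 26.8% instead of 50.6% of all calls were higher, and Gria2, Grin1 and Grin2b turned to -0.02, -0.11 and -0.10, while the 5 members called were called again. Neuronal genes moved as well, 8 general neuronal markers summing to 3272 to 3923 CPM in the Ppp1r1b-rich spots and 6500 to 7308 in the Slc17a7-rich spots, and their part in the result was not tested. In tissue spots, fewer neurons and less RNA per neuron cannot be told apart.

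**Figure D2:**
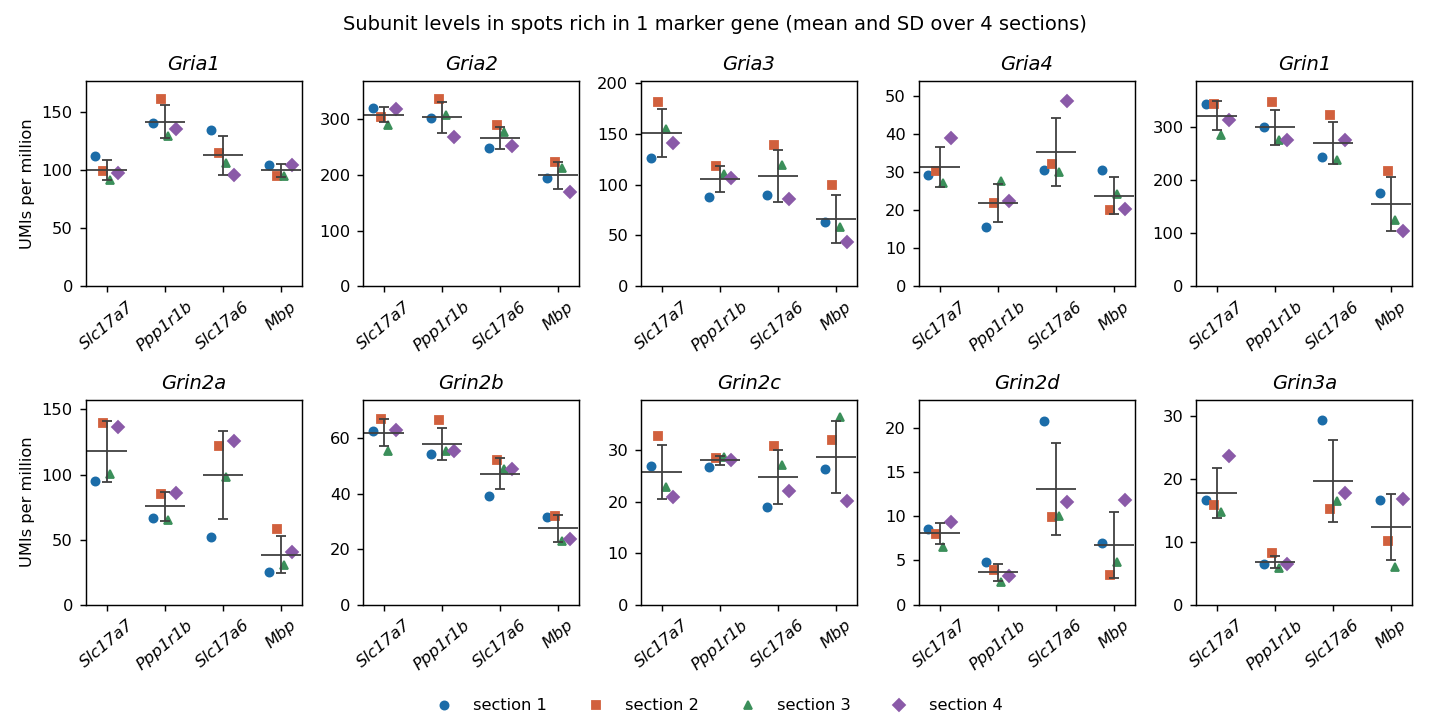
Level of each subunit in CPM (axes from 0) in the Slc17a7-, Ppp1r1b-, Slc17a6- and Mbp-rich spots, with 1 point per section and the mean and SD over 4 sections. Gria1 is highest in the Ppp1r1b-rich spots of each section, at 129 to 161, and Grin3a is lowest there in mean, at 6.78.

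In the Mbp-rich spots 5 of the 10 subunits were lower, Grin2a, Grin2b, Grin1, Gria3 and Gria2. Grin2a had the largest difference, with 25.4, 58.0, 30.3 and 40.5 CPM, against the mean of the other 3 groups (log2 fold change -1.23, SE 0.15, adjusted p = 4.29e-07). Grin2b was at 31.6, 31.9, 23.1 and 23.6 CPM (-0.91, SE 0.12, adjusted p = 2.60e-06), below every value of the other groups. Grin1 was at 176, 217, 125 and 105 (-0.85, SE 0.10, adjusted p = 1.83e-07) and also did not overlap with them.

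Among the AMPA subunits, Gria3 was at 63.2, 99.2, 58.3 and 43.8 CPM in the Mbp-rich spots (log2 fold change -0.76, SE 0.12, adjusted p = 1.48e-05). Gria2 was at 194, 224, 212 and 169 (-0.49, SE 0.07, adjusted p = 1.25e-05), below all values of the other groups. Gria1 was at 104, 95.0, 94.7 and 105 CPM and did not pass the test (-0.19, adjusted p = 0.115).

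Grin2c did not pass the test in the Mbp-rich spots, where it was at 26.3, 31.9, 36.4 and 20.2 CPM and overlapped with the other groups (log2 fold change 0.19, SE 0.16, adjusted p = 0.381, 95% interval -0.12 to 0.50). Gria4 (-0.16), Grin2d (-0.20) and Grin3a (-0.07) did not pass the test, and Grin2d rested on as few as 4 UMIs in a section and Grin3a on 5. In all, 0 members were higher and 5 lower by edgeR, as by DESeq2, and 0 were higher at an unadjusted p under 0.05, while 19.2% of all tested genes were higher and 17.8% lower. General neuronal markers summed to 2051 to 3692 CPM in the Mbp-rich spots and 3272 to 7308 in the other groups, and 6 astrocyte markers to 1778 to 2107 against 1139 to 1652. Their part in these differences was not tested.

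Fewer genes separated the Slc17a6-rich from the Slc17a7-rich spots, 622 of 12172. Gria3 was at 89.9, 139, 120 and 85.4 CPM, lower than in the Slc17a7-rich spots of the same section in 4 of 4 sections (log2 fold change -0.44, SE 0.11, adjusted p = 0.0145). Grin2b was at 39.2, 52.2, 48.9 and 48.8 CPM against 62.7, 66.9, 55.4 and 62.9 (-0.35, SE 0.10, adjusted p = 0.0389), without overlap, but this call was kept in only 8 of 17 alternatives and was lost with DESeq2 and whichever section was left out. Grin2d was higher in 4 of 4 sections without overlap but did not pass the test (0.69, SE 0.23, adjusted p = 0.0798). Thus 0 members were higher by edgeR, as by DESeq2, although Gria1 and Grin2d had an unadjusted p under 0.05, and 2 were lower, where 2.54% of all tested genes were higher and 2.57% lower, and with total-UMI scaling 36.9% instead of 49.7% of all calls were higher. The 6 inhibitory neuron markers summed to 1382 to 1736 CPM in the Slc17a6-rich and 944 to 1087 in the Slc17a7-rich spots, without overlap, and their part in these differences was not tested. Without section 1, no member was called (Gria3 -0.44, adjusted p = 0.0860; Grin2b -0.27, adjusted p = 0.285). Calls over all genes fell as well, to 122 of 12192 tested, and the Gria3 log2 fold change was -0.44 in both fits.

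With the Slc17a6-rich spots held to a cortical marker score below 0, a choice made after the data were seen, more genes were called against the Slc17a7-rich spots, 1648 of 11514 tested (844 higher) instead of 622 of 12172, and more members were among them. Gria1 (0.48, adjusted p = 0.00164) and Grin2d (0.99, adjusted p = 0.0112) were then higher, and Gria3 (-0.69), Grin1 (-0.46), Grin2a (-0.73) and Grin2b (-0.48) lower. Gria1 in these spots was at 140, 136, 145 and 117 CPM, above every Slc17a7-rich value. Grin2d was at 25.7, 12.4, 6.78 and 17.2 CPM, with section 3 resting on 5 UMIs and lying among the Slc17a7-rich values. The Slc17a6-rich spots had 8 cortical markers at 177 to 334 CPM under this choice.

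Grin2d and Grin3a separated the Slc17a6-rich from the Ppp1r1b-rich spots. Grin2d was at 20.7, 9.89, 10.0 and 11.6 CPM in the Slc17a6-rich spots, and all 4 values were above the Ppp1r1b-rich ones (log2 fold change 1.62, SE 0.26, adjusted p = 2.37e-05). Grin3a was at 29.4, 15.3, 16.5 and 17.7 CPM, again above all Ppp1r1b-rich values (1.32, SE 0.22, adjusted p = 3.84e-05). Section 1, where Zic1 and Calb2 were high, had the highest level of both genes; without it the log2 fold changes were 1.49 and 1.08 (adjusted p = 0.000711 and 0.00104).

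Gria4 was also higher in the Slc17a6-rich than in the Ppp1r1b-rich spots, at 30.5, 32.1, 30.1 and 48.8 CPM against 15.5, 21.8, 27.6 and 22.4 (log2 fold change 0.54, SE 0.15, adjusted p = 0.00769). In CPM the 2 groups did not overlap, but the call was lost without section 4 (0.42), with lists of 8 markers (0.41) and in the spots with a cortical score below 0 (0.38). Gria1 (-0.47), Gria2 (-0.33), Grin1 (-0.29) and Grin2b (-0.43) were lower, of which Gria2 and Grin1 lost the call with total-UMI scaling. In the spots with a cortical score below 0, Grin2d (1.92), Grin3a (1.53), Gria2 (-0.42), Grin1 (-0.54) and Grin2b (-0.57) were called again, Gria3 was called as lower (-0.36, adjusted p = 0.0277), and the Gria1 call was lost (-0.21), while with lists of 8 markers in place of the single marker gene Gria1 turned to 0.25, without passing the test. Grin2a was not called in the main fit (0.23) but was called as lower with these lists (-1.06, adjusted p = 0.000104). In all, 3 members were higher and 4 lower in the main fit, where 16.7% of all tested genes were higher and 15.5% lower. With total-UMI scaling all tested genes moved by 0.14 in median on the log2 scale and 71.4% instead of 51.9% of calls were higher. The Slc17a7-rich and Ppp1r1b-rich spots serve in several of these comparisons, so the comparisons are not independent of each other.

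**Figure D3:**
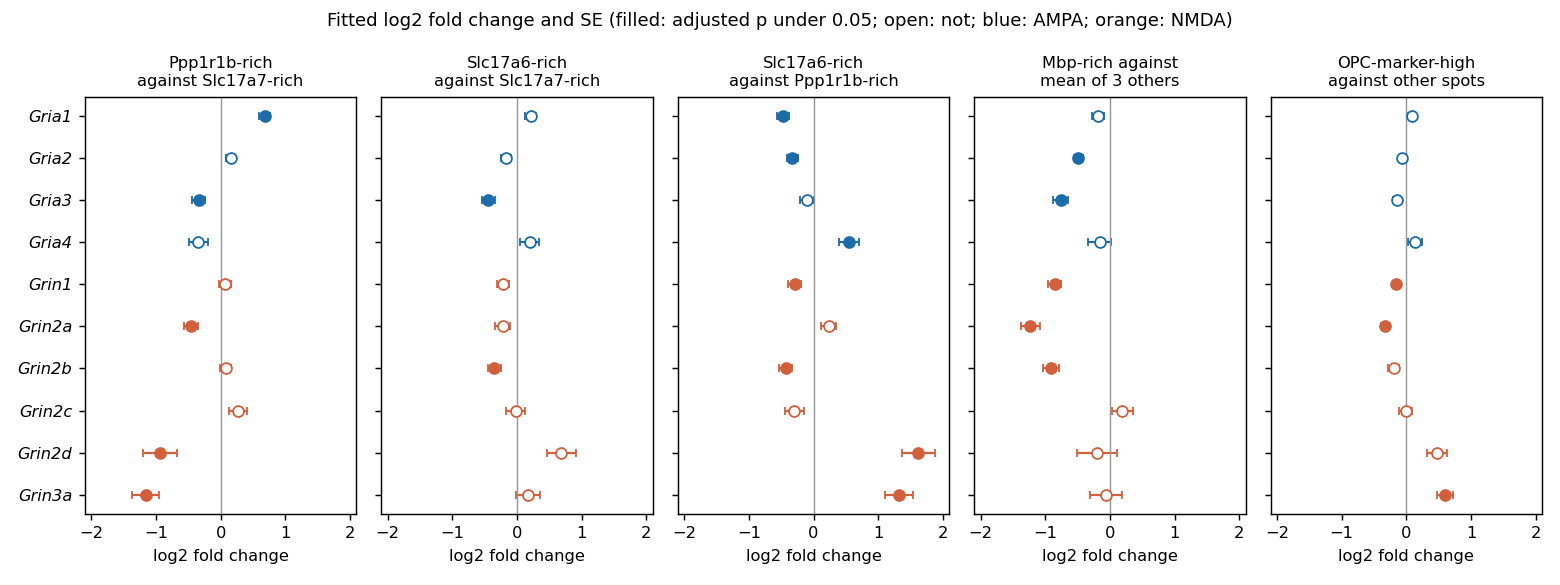
Fitted log2 fold change (point) and SE (bar) of each subunit in 5 comparisons, with AMPA subunits in blue, NMDA subunits in orange, and filled points for adjusted p under 0.05. Grin2d and Grin3a have the widest range, from -0.94 and -1.16 in the first panel to 1.62 and 1.32 in the third.

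Shares within each receptor family do not depend on the scaling between groups, and they gave the subunit make-up. Gria2 supplied 52.2% ± 2.19 of AMPA subunit UMIs in the Slc17a7-rich spots (SD, n = 4 sections), 53.1% ± 2.05 in the Ppp1r1b-rich, 51.0% ± 1.45 in the Slc17a6-rich and 51.3% ± 2.28 in the Mbp-rich spots. Its share differed by less than 2.1 percentage points in mean in each of the 4 comparisons, and the direction varied between sections in all 4. The shares of Gria1 and Gria3 differed in 1 direction in all 4 sections in 3 of the 4 comparisons, the exception being the Slc17a6-rich against the Ppp1r1b-rich spots.

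Gria1 made up 16.9% ± 1.44 of AMPA subunit UMIs in the Slc17a7-rich spots and 24.7% ± 1.55 in the Ppp1r1b-rich spots. The difference was 7.77 percentage points ± 1.59 and was positive in 4 of 4 sections (exact paired sign-flip permutation test, two-sided, p = 0.13, adjusted p = 0.200 over 40 tests). With 4 pairs, 0.13 is the smallest p this test can give, so none of the 40 tests could pass. Gria3 made up 25.5% ± 3.62 in the Slc17a7-rich spots and 18.4% ± 1.67 in the Ppp1r1b-rich spots, lower in 4 of 4 sections. In the Slc17a6-rich spots Gria1 made up 21.6% ± 3.45 and Gria3 20.5% ± 3.23. In the Mbp-rich spots these shares were 25.9% ± 3.95 and 16.7% ± 4.18. The Slc17a7-rich spots thus had the lowest mean Gria1 share and the highest mean Gria3 share of the 4 groups. The Mbp-rich spots, not the Ppp1r1b-rich ones, had the highest mean Gria1 share and the lowest mean Gria3 share. By section, these 2 groups were not ordered. Their Gria3 shares were 16.11%, 22.6%, 15.0% and 13.0% in the Mbp-rich and 16.06%, 18.5%, 19.2% and 19.9% in the Ppp1r1b-rich spots. In section 2 the Gria1 share was lower in the Mbp-rich spots (21.7% against 25.3%). The lowest Mbp-rich sum held 26 Gria3 UMIs. Gria4 stayed a minor part in each group, from 3.82% ± 0.86 in the Ppp1r1b-rich to 6.85% ± 2.19 in the Slc17a6-rich spots.

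Among the Grin2 genes, Grin2a made up 54.9% ± 4.32 in the Slc17a7-rich spots and 45.6% ± 3.08 in the Ppp1r1b-rich spots, lower in 4 of 4 sections. Grin2b went the other way, with 29.2% ± 2.52 and 35.0% ± 2.05, so that there were 1.90 ± 0.30 Grin2a UMIs per Grin2b UMI in the Slc17a7-rich spots and 1.31 ± 0.17 in the Ppp1r1b-rich spots. Section 1 had the lowest ratio of the Slc17a7-rich spots, at 1.52, still above the 1.23 of its own Ppp1r1b-rich spots.

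The Grin2c share was highest in the Mbp-rich spots, with 28.5% ± 7.40, against 12.2% ± 2.12 in the Slc17a7-rich, 17.1% ± 1.49 in the Ppp1r1b-rich and 13.6% ± 1.95 in the Slc17a6-rich spots. It exceeded the mean of the other 3 groups in 4 of 4 sections, by 9.02 to 23.1 percentage points. Grin2c had 110 UMIs in the Mbp-rich spots, with 12 in the lowest section. Its level there did not pass the test (log2 fold change 0.19), while the levels of Grin2a and Grin2b were lower. Grin2d had 2.22% ± 0.65 in the Ppp1r1b-rich spots and 7.86% ± 5.31 in the Slc17a6-rich spots, where section 1 alone reached 15.8% and the other sections 4.60% to 5.59%. The make-up of the Slc17a6-rich spots depended on the marker: with lists of 8 markers in place of the single marker genes the mean Grin2d share was 16.01%, the Grin2a share 30.2% instead of 52.6%, the Gria1 share 31.6% instead of 21.6%, and the Grin2a UMIs per Grin2b UMI 0.86 instead of 2.06.

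Relative to the Grin2 genes, Grin1 had 182 ± 15.9 UMIs per 100 Grin2 UMIs in the Ppp1r1b-rich spots and 152 ± 19.2 in the Slc17a7-rich spots, higher in 4 of 4 sections. Grin3a had 4.10 ± 0.32 per 100 Grin2 UMIs in the Ppp1r1b-rich spots, 8.36 ± 1.61 in the Slc17a7-rich spots and 12.6 ± 6.26 in the Mbp-rich spots. With lists of 8 markers the value of the Slc17a7-rich spots was 5.30. Over all 40 tests of make-up, 25 differences had 1 direction in all 4 sections.

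**Figure D4:**
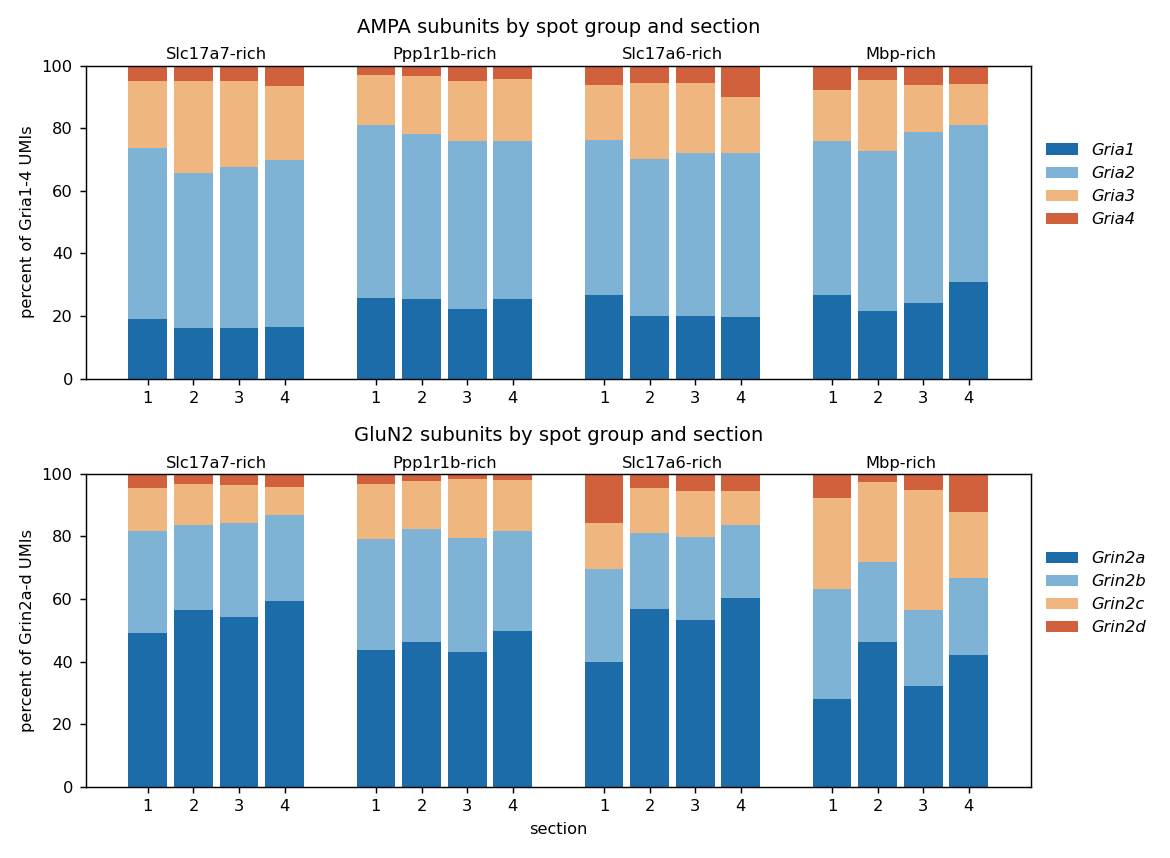
Make-up of the AMPA subunits (upper panel, percent of Gria1 to Gria4 UMIs) and of the Grin2 subunits (lower panel, percent of Grin2a to Grin2d UMIs), with 1 stacked bar per spot group and section. The Grin2c part is largest in the Mbp-rich spots, 21.1% to 38.5% of Grin2 UMIs.

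Because the study asked about OPC-dense areas, the top 10% of a section's spots by excess UMIs of 8 OPC markers were set against all other spots of the section. By this rule such spots exist in any section, and they were not checked against the OPC-dense areas of the study. Among the markers were Pdgfra and Cacng4, an auxiliary AMPA subunit. Cacng4 also differed between the spot groups above, with means of 51.6 CPM in the Ppp1r1b-rich and 12.5 in the Slc17a7-rich spots. The 8 markers summed to 377 to 461 CPM in these OPC-marker-high spots and 78.5 to 105 in the others. Grin3a was higher in them in 4 of 4 sections, at 30.5, 21.4, 16.1 and 24.7 CPM against 17.2, 13.7, 13.5 and 17.0 (log2 fold change 0.59, SE 0.12, adjusted p = 0.00193 by edgeR over 14259 genes). The ranges of the 2 groups overlapped, the OPC-marker-high value of section 3 lying below the other-spot values of sections 1 and 4.

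Grin2d was at 19.2, 9.44, 10.6 and 11.2 CPM in the OPC-marker-high spots against 10.8, 7.81, 7.54 and 9.78, also higher in 4 of 4 sections, but it did not pass the test (log2 fold change 0.47, SE 0.16, adjusted p = 0.0815). Grin2a was at 51.1, 83.7, 71.4 and 76.3 against 65.5, 103, 82.6 and 107, lower in 4 of 4 sections (-0.33, SE 0.07, adjusted p = 0.00130). Grin1 was at 241, 282, 229 and 231 against 264, 313, 247 and 273, lower in 4 of 4 sections (-0.16, SE 0.05, adjusted p = 0.0346), a call kept in 7 of 14 alternatives and lost with DESeq2 and without section 2, 3 or 4. Grin3a thus stood at 14.9 ± 4.69 UMIs per 100 Grin2 UMIs in the OPC-marker-high spots and 8.62 ± 1.98 in the others.

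In all, 1 member was higher and 2 lower, where 2.79% of all tested genes were higher and 3.09% lower. The other 6 members ranged from -0.20 (Grin2b) to 0.13 (Gria4). When the other spots were matched on region cluster and depth, 0 members were called (Grin3a 0.48, adjusted p = 0.0851; Grin2a -0.02), and with Pdgfra alone as the marker Grin3a was at 0.21 (adjusted p = 0.486). The shares of all tested genes above are those of the main fit, and none is given for matched spots or Pdgfra alone. The lost calls there can therefore not be told apart from a loss over all genes. Matching kept at most 3 other spots per OPC-marker-high spot, and the part of this smaller number in the lost calls was not tested. Other lists moved with these spots: general neuronal markers summed to 3659 to 4599 CPM against 4142 to 5655, oligodendrocyte markers to 1877 to 3282 against 1386 to 2240, and Slc17a7 stood at 128 to 377 against 361 to 524. The 8 striatal markers summed to 1773, 2507, 2652 and 1862 CPM in sections 1 to 4 against 2219, 2320, 2190 and 1677, lower in section 1 and higher in the others. The 8 cortical markers summed to 284, 456, 392 and 437 CPM against 380, 573, 489 and 585, lower in every section. The 8 subcortical markers summed to 237, 158, 157 and 155 CPM against 178, 141, 153 and 124, higher in every section. Microglia markers, at 355 to 392 CPM against 320 to 353, were also higher in every section. The part of these markers in the differences was not tested, beyond the matched spots.

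**Figure D5:**
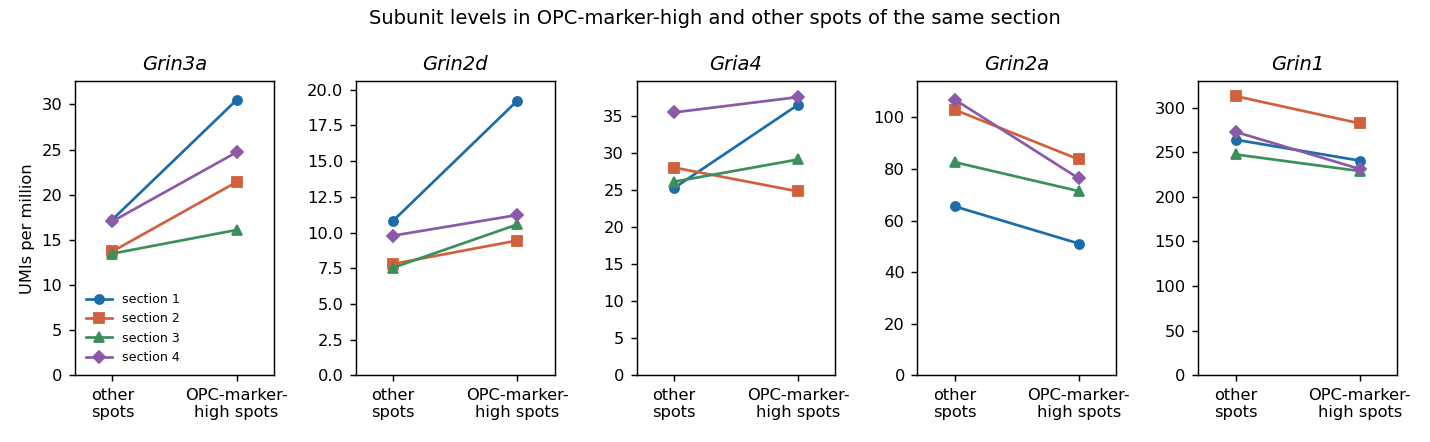
Level of 5 subunits in CPM (axes from 0) in OPC-marker-high spots and in all other spots of the same section, with 1 line per section. Grin3a and Grin2d are higher and Grin2a and Grin1 lower in 4 of 4 sections, while Gria4 is higher in 3 of 4.

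A finer view came from 10 clusters of spots per section, made from genes that did not include the members, which gave 40 sums. Gria1 peaked in each section in a cluster with Prkcd, Lbhd2 and Zic1 among its 5 leading genes, at 230, 247, 292 and 218 CPM in sections 1 to 4, against cluster medians of 118, 100, 105 and 90.9. The peak of section 4 rested on 68 UMIs in 64 spots. Grin2a peaked in clusters led by cortical genes such as Vip, Slc30a3 and Bhlhe22, at 99.4, 157, 124 and 147 CPM. Grin1 reached 287 to 377 CPM in its highest clusters. Clusters are a description here and were not tested.

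Across the 40 sums, centred within section, the genes most like each member were noted as a description, with Pearson's r of log2(CPM + 1) and no p, since sums of 1 section share a library. Gria1 was most like Slc32a1 (r = 0.92), the vesicular transporter of inhibitory neurons, then Gad1 (0.89), a GABA-synthesising enzyme, and Nrsn2 (0.89). Gria2 was most like Ncdn (0.93), Plppr5 (0.93) and Shisa7 (0.91), and Gria3 like Adgrl1, Cyfip2 and Eef1a2 (each 0.94). Gria4 had lower values, with Idh3b, B4gat1 and Mapk8ip3 (0.82, 0.82 and 0.81).

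Grin1 was most like Eef1a2 (r = 0.96), a neuronal translation elongation factor, then Add2 and Scn2a (both 0.94). Among the genes most like Grin2a were Cdk5r2 (0.92) and Camkk2 (0.91), and Grin2b was most like Actr3b, Hey1 and Lgi1 (0.95, 0.95 and 0.93). Grin3a was most like Plxnc1 (0.89), Ankrd13d and Vstm2a (both 0.83), and Grin2d like Fstl5, Cd200 and Pcdh8 (0.80, 0.79 and 0.78). Grin2c stood apart, with Abcb1a (0.73), a transporter of brain endothelium, Tmem100 (0.67) and Nrros (0.66). Between members, Gria3 and Grin1 were closest (0.93), and the values of Grin2c with the other 9 lay between -0.19 and 0.34.

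The wider list of related genes held 44 auxiliary subunits, scaffold proteins, pentraxins and other ionotropic glutamate receptors, of which 43 were tested in the spot groups. In the Ppp1r1b-rich against the Slc17a7-rich spots 14 were higher and 15 lower, where 19.4% of all tested genes were higher and 18.9% lower, with a median log2 fold change of 0.02 and of 0.03 over all tested genes. The auxiliary AMPA subunit Cacng4 (log2 fold change 2.23, SE 0.15) and the kainate receptor partner Neto2 (1.66, SE 0.10) were highest, and the pentraxin Nptx1 (-2.63, SE 0.12) and the pentraxin receptor Nptxr (-2.17, SE 0.14), which gather AMPA receptors at synapses, were lowest. Cacng4 was at 51.6 CPM in mean in the Ppp1r1b-rich and 12.5 in the Slc17a7-rich spots.

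In the Mbp-rich spots 0 related genes were higher and 22 lower (19.2% and 17.8% of all tested genes), with a median of -0.41 against -0.02 over all tested genes, Nptxr (-1.25) and the auxiliary AMPA subunit Cacng2 (-1.04) being lowest. In the Slc17a6-rich against the Slc17a7-rich spots 1 was higher, the kainate receptor Grik1 (1.10, SE 0.25), and 9 lower, led by Nptx2 (-1.13) and Nptx1 (-0.92), where 2.54% of all tested genes were higher and 2.57% lower. Against the Ppp1r1b-rich spots 13 were higher, led by Grik1 (2.41) and the AMPA receptor export factor Cnih3 (2.01), and 18 lower, led by Cacng4 (-1.70) and Neto2 (-1.39), where 16.7% of all tested genes were higher and 15.5% lower. In the OPC-marker-high spots 0 of 42 tested were higher and 7 lower (2.79% and 3.09% of all tested genes), led by Cnih3 (-0.47) and Nptxr (-0.43), with Cacng4 left out as an OPC marker. Each of these named genes passed the test at an adjusted p of at most 0.0105.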

How the data were processed

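Visium fresh frozen libraries were made from 4 Nf1+/- brain sections. Per the submitters' processing notes, reads went through Space Ranger 1.3.1 with mm10, and the authors deposited unnormalised UMI counts of every gene in every spot, 19261710 to 37002379 UMIs per section. Spots with at least 500 UMIs were used, which left out 1 to 26 spots per section. Spot barcodes mark fixed slide positions, and sections shared 427 to 1989 of them. Doublets were not called, since a spot is not a cell.

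Marker scores were (observed - expected)/sqrt(expected) UMIs. UMIs were summed per section and spot group, scaled by TMM, filtered with filterByExpr and tested with edgeR 4.0.16 (quasi-likelihood, 16 sums for the spot groups and 8 for the OPC markers), blocked by section, at a Benjamini-Hochberg adjusted p under 0.05 across all genes. Marker genes were left out of counts. Groups of a section share tissue, and their deviations correlated in each pair (r 0.145 to 0.387, and 0.389 to 0.513 for the OPC groups). DESeq2 1.42.0 was an alternative. Make-up shares were compared by an exact paired permutation test. The fit was also run on simulated counts made without differences between sections in any gene, which cannot test the section block. Spots of a section were split into 10 k-means clusters from 20 components (1000 variable genes, without the members). Differences between the median of a gene list and that of all genes are descriptions.

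The members and gene lists were chosen with earlier results of these data known. Named were all 10 members, for each the 3 genes of most similar pattern (1 of these is not reported here), and of the 44 related genes the 2 largest rises and 2 largest falls past the threshold in each comparison. Alternatives changed the scaling, tool, filters, spot groups, markers and sections (17 for the spot groups, 14 for the OPC markers). Protein sequences were not used here.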

Additional observations from a re-analysis of the deposited data

Results flagged for a closer look

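Among 144 sets of 4 section values, 15 held a section far from the other sections by Dixon's criterion, where chance gives about 7.2 (1 in 20). Section 4 stood high for Gria4, at 35.7 CPM over all spots and 48.8 in the Slc17a6-rich spots, and its Gria4 share of AMPA subunit UMIs was 6.57% in the Slc17a7-rich and 10.1% in the Slc17a6-rich spots. Section 1 stood high in the Slc17a6-rich spots for the Grin2d level (20.7 CPM), the Grin2d share of Grin2 UMIs (15.8%), Grin3a per 100 Grin2 UMIs (22.4) and the Gria1 share (26.8%).

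Section 1 also stood high for the Gria1 share in the Slc17a7-rich spots (19.1%) and the Grin2b share in the Mbp-rich spots (35.0%). Section 3 stood low for the Gria1 share in the Ppp1r1b-rich spots (22.4%), and section 4 stood low for the Grin2c share in the Slc17a6-rich spots (10.6%). Section 2 stood high for the Grin2b level in the Ppp1r1b-rich spots (66.5 CPM). The log2 ratio of Grin2a between Slc17a6-rich and Ppp1r1b-rich spots was -0.35 in section 1 and positive in the other sections, and that of the Mbp-rich spots was -0.96 in section 2, nearer 0 than in the other sections.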

How the results depend on the processing

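Each comparison was refitted under 17 alternatives (14 for the OPC markers), of which the Slc17a6-rich spots with a cortical score below 0 were chosen after seeing the data. A section's group was to enter a fit only if its marker CPM reached 33% of the highest section, and all 16 sums did. Among the 17, the alternative without this requirement was therefore the main fit again and could not differ. Of 22 member calls, 10 held under every alternative run and 1 changed sign, Gria1 in the Slc17a6-rich against the Ppp1r1b-rich spots. The 7 ordered neighbours in level held under all alternatives, and 24 to 29 make-up differences had 1 direction. The causes of the changes were not tested. Calls over all genes are given only for some alternatives. None are given for the other spot fractions, the ranking by marker CPM, the fits without hippocampal-marker spots, matched spots or Pdgfra alone. Where none are given, a changed number of members called cannot be told apart from a change over all genes. Grin2d and Grin3a rest on few UMIs, and all results rest on 4 sections of 1 genotype. Of 528 make-up values, 15 moved by more than the spread between sections.

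In the Ppp1r1b-rich against the Slc17a7-rich spots, 2 members were higher with the top 5% or 20% of spots or a ranking by marker CPM, and 2 were lower with the top 5%, the marker CPM or no replicate block (3 to 4 with 1 section left out). Over all genes, 3687 of 12172 tested (1803 higher) were called with no replicate block, against 4665 (2360 higher) in the main fit. No such count is given for the other spot fractions or the ranking by marker CPM. Lists of 8 markers turned Grin1 to -0.0013 and Grin2b to -0.11, and total-UMI scaling turned Gria2 to -0.023, Grin1 to -0.11 and Grin2b to -0.10.

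In the Slc17a6-rich against the Slc17a7-rich spots, members higher numbered 1 with the top 5%, the top 20% or marker CPM, 3 with lists of 8 markers, and 2 without hippocampal-marker spots or with the cortical score below 0. Members lower numbered 0 with the top 5%, marker CPM or no replicate block, 1 with the top 20% or DESeq2, 4 with lists of 8 or the cortical score below 0, and 0 to 1 with 1 section left out. Calls over all genes moved as well, from 622 of 12172 tested (309 higher) in the main fit. They numbered 2444 of 12943 (1101 higher) with lists of 8 and 1648 of 11514 (844 higher) with the cortical score below 0. With DESeq2 they were 478 of 11463. Grin2c turned to 0.077 (top 20%), 0.029 (no choroid plexus-marker spots), 0.00019 (lists of 8), 0.067 (no hippocampal-marker spots), 0.11 (cortical score below 0) and 0.096 (without section 1). Grin3a ran from -0.086 (without section 1) to 0.33 (without section 4).

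In the Slc17a6-rich against the Ppp1r1b-rich spots, 2 members were lower with total-UMI scaling, and 2 to 4 were higher and 3 to 4 lower with 1 section left out. Gria1 turned to 0.25 and Grin2a to -1.06 (lists of 8), Grin2a to -0.29 (cortical score below 0), and Gria3 to 0.031 with total-UMI scaling, with a range of -0.20 to 0.029 (without section 4) when 1 section was left out. Of these changes of sign, only that of Grin2a with lists of 8 passed the test (edgeR, adjusted p = 0.000104), where the main fit gave 0.23 without passing. In the Mbp-rich spots 5 members were lower whichever section was left out. Grin2d turned to 0.11 (top 5%), 0.39 (top 20%), 0.13 (marker CPM), and ran from -0.51 to 0.019 (without section 2) with 1 section left out. Grin3a turned to 0.012 (top 5%), 0.033 (top 20%), 0.095 (no choroid plexus-marker spots), 0.051 (no hippocampal-marker spots) and 0.0030 (without section 2), and ran from -0.20 to 0.069 (without section 3) with 1 section left out.

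For the OPC markers, 0 members were higher with Pdgfra alone, matched spots or no replicate block, and 0 lower with the top 5%, matched spots or no replicate block, against 1 with DESeq2 and 1 to 2 with 1 section left out. Grin2c turned to 0.080 (top 5%), 0.11 (Pdgfra), 0.058 (matched) and 0.0013 (no replicate block), and ran from -0.065 to 0.036 (without section 3) with 1 section left out. Pdgfra alone turned Gria4 to -0.16 and Grin2d to -0.11, and matching turned Gria1 to -0.054 and Gria3 to 0.037. Without the replicate block, 113 genes were called in the Slc17a6-rich against the Slc17a7-rich spots, instead of 622, and 8 instead of 838 for the OPC markers. DESeq2 called 348 of the 10386 genes it tested for the OPC markers.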
